A study of Homo sapiens with 6 samples.

Results

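The 9 genes examined here mark the megakaryocyte and platelet lineage: the fibrinogen receptor genes *ITGA2B* and *ITGB3*, the von Willebrand factor receptor genes *GP1BA*, *GP1BB* and *GP9*, the adhesive protein genes *VWF* and *THBS1*, and the platelet chemokine genes *PF4* and *PPBP*. They were picked out by symbol, with no threshold on a measured value, although earlier results of these data were known when the list was drawn up, and all 9 have a row among the 60671 gene rows of the count files, of which 26226 held at least 1 read. The cells were a K562 clone, a human chronic myeloid leukemia line, that expresses a Flag-NLS-M.CviPI-Lamin-B1 fusion protein (a GpC methyltransferase joined to Lamin B1) when doxycycline is given. Three-prime mRNA libraries were made from 3 cultures given 0.1% DMSO for 72 h and from 3 cultures given 1 µM GSK343, an inhibitor of the H3K27 methyltransferase EZH2 (EZH2i), for 72 h. Cultures of both groups received 1 µg/mL doxycycline over the last 24 h, so the fusion protein is common to all 6 libraries, and both groups derive from 1 clone.

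Megakaryocytes are the marrow cells that release platelets, and they share a progenitor with red cells. K562 cells stand near that branch point: they express erythroid genes, and phorbol esters are known to push them towards megakaryocyte markers. The products of *ITGA2B* and *ITGB3* pair on the platelet surface to bind fibrinogen, and those of *GP1BA*, *GP1BB* and *GP9* form the complex that tethers platelets to von Willebrand factor at a damaged vessel wall. Thrombospondin, von Willebrand factor and the chemokines encoded by *PF4* and *PPBP* are stored in alpha granules and released on activation. In the lineage GATA1 and ETS-family factors such as FLI1 bind near many of these genes.

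The libraries held between 6327544 and 8987768 reads on genes, and within each group every pair of libraries differed by more than sampling noise (chi-square per degree of freedom 4.56 to 12.7). The share of reads on no annotated feature was highest in EZH2i replicate 3, at 12.7%. Of the 12364 genes with enough reads to be tested, 527 passed an adjusted p of 0.05 in edgeR's quasi-likelihood test of EZH2i against DMSO, 413 higher and 114 lower in EZH2i. That number fell to 213, 209 and 240 without DMSO replicates 1, 2 and 3.

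The window of 300 bases around the annotated start, 250 before it and 50 from it on, was matched in RefSeq (GRCh38.p14) for *ITGA2B*, *GP1BB*, *GP9*, *THBS1* and *PPBP*; *ITGB3*, *GP1BA*, *VWF* and *PF4* were not matched. It was searched on both strands for GATAA, a form of the GATA core (TTATC on the other strand), and for GGAAGT, an ETS-family core (ACTTCC on the other strand). These share no overlapping position in these windows. Other forms, such as the GATAG in the *ITGA2B* window, were not searched or marked, so a window without a match may still hold a GATA or ETS core. GATAA occurred in 22.7% of 35116 promoters and in 3 of the 5 matched lineage genes (*GP1BB*, *GP9*, *PPBP*), and GGAAGT occurred in 22.8% of promoters and in 3 of the 5 (*ITGA2B*, *GP9*, *PPBP*). A pair of windows that hold both cores, of genes with no read here, is printed below that of *ITGA2B*, the lineage gene with the most reads; each runs 5′ to 3′ on the gene's strand, and capitals mark the cores. The *ITGA2B* window is chr17:44389600-44389899 (minus strand), that of *GP9* is chr3:129060529-129060828 (plus strand) and that of *PPBP* is chr4:73988141-73988440 (minus strand).
ITGA2B: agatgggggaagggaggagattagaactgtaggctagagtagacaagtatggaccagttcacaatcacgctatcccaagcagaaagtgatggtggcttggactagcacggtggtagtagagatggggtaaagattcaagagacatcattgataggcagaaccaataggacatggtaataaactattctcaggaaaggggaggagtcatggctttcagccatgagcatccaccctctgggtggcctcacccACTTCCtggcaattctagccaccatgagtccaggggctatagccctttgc
GP9: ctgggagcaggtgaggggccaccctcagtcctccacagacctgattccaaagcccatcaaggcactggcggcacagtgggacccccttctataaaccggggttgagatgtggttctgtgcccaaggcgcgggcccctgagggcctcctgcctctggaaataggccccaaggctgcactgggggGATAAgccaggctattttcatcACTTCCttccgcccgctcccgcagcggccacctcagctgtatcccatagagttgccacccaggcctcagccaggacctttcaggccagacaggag
PPBP: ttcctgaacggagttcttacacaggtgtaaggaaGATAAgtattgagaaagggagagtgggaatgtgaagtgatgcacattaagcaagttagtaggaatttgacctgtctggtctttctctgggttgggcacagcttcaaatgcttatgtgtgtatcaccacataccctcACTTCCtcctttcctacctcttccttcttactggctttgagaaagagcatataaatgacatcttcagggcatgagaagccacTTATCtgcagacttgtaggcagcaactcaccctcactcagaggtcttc
In *GP9* the GATA core begins 67 bases before the start and the ETS core 45 bases before it. In *PPBP* a GATA core begins 216 bases before the start and another just past it, with an ETS core 80 bases before the start, and in *ITGA2B* the ETS core lies at the start itself. These matches describe the letters in the window only.

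Of the lineage genes 7 were at or near the limit of detection in both groups, *ITGA2B* and *ITGB3* were read at a low level, and none passed a test of EZH2i against DMSO. Over all 6 libraries the 9 genes drew 134 reads, 124 of them on *ITGA2B* and *ITGB3*. *GP1BA* and *THBS1* had 10 reads between them, and *GP1BB*, *GP9*, *VWF*, *PF4* and *PPBP* had no read in any library. Values are given as CPM, the count of a gene scaled to the reads on genes of its library; since these libraries sample 1 end of each transcript, CPM was not divided by transcript length when genes were compared. The summed CPM of the 9 genes was 2.96 to 3.40 in DMSO and 2.01 to 3.14 in EZH2i. As these are bulk libraries, fewer expressing cells and less RNA per cell cannot be told apart.

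**Figure D1:**
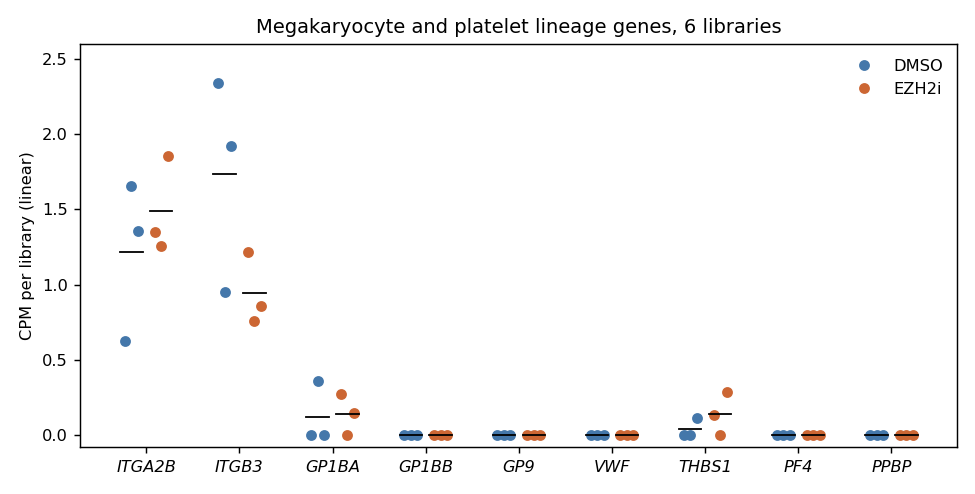
CPM (linear axis) of the 9 megakaryocyte and platelet lineage genes in 3 DMSO and 3 EZH2i libraries, with a bar at each group's mean. *ITGA2B* and *ITGB3* lie between 0.624 and 2.34 CPM, with points of the groups overlapping in both, and the other 7 genes lie at or near 0.

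*ITGA2B* (ENSG00000005961, chr17:44372180-44389649, minus strand, 30 exons) encodes the alpha IIb chain, the most lineage-restricted part of the fibrinogen receptor. It had 4, 14 and 12 reads in the DMSO libraries and 10, 10 and 13 in the EZH2i libraries, or 0.624, 1.66 and 1.36 CPM against 1.35, 1.26 and 1.86 CPM. DMSO replicate 1 was the lowest library and EZH2i replicate 3 the highest, and the groups overlapped. Mean level was 1.21 ± 0.532 CPM in DMSO and 1.49 ± 0.322 CPM in EZH2i (SD, n = 3 each), lower than in nearly all tested genes (percentile 1.67 of mean level).

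*ITGA2B* was the only lineage gene with enough reads for edgeR's test, and it did not pass (log2 fold change 0.24, SE 0.446, adjusted p = 0.822). The same difference gave p = 0.6 in a two-sided exact permutation test of CPM, whose smallest possible value for 3 against 3 libraries is 0.1. From the pooled reads, 30 against 33, the EZH2i level was 1.20 times the DMSO level with a 95% exact interval of 0.707 to 2.03. That interval, like the limits on counts of 0 given here, covers counting error only. Without DMSO replicate 1 the fitted log2 fold change was -0.026 (edgeR adjusted p = 0.987).

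*ITGB3* (ENSG00000259207, chr17:47253827-47313743, plus strand, 15 exons) encodes the beta 3 chain, which pairs with the alpha IIb chain and, in many other cells, with the alpha V chain. Its counts were 15, 8 and 17 in DMSO and 9, 6 and 6 in EZH2i, which is 2.34, 0.947 and 1.92 CPM against 1.21, 0.754 and 0.856 CPM. The 2 highest libraries were DMSO replicates 1 and 3, but EZH2i replicate 1 lay above DMSO replicate 2. The mean was 1.74 ± 0.715 CPM in DMSO and 0.942 ± 0.242 CPM in EZH2i (SD, n = 3 each), with p = 0.2 in the two-sided exact permutation test.

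Pooled over libraries, *ITGB3* had 40 reads in DMSO and 21 in EZH2i, a ratio of 0.570 with a 95% exact counting interval of 0.320 to 0.991 that leaves out the spread between cultures. The gene fell below the read filter of edgeR's test; fitted with no filter it had a log2 fold change of -0.88 (edgeR adjusted p = 0.504), and in DESeq2 one of -0.89 (adjusted p = 0.623). It passed the filter in 4 of the 6 fits that leave out 1 library, with log2 fold changes from -1.15, without DMSO replicate 2, to -0.71 and adjusted p from 0.267 to 0.541. A lower level of *ITGB3* in EZH2i was thus not separated from the spread between libraries.

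The *ITGA2B* and *ITGB3* levels could not be ordered in DMSO, where their libraries interleaved. In EZH2i the lowest *ITGA2B* library, at 1.26 CPM, lay just above the highest *ITGB3* library, at 1.21 CPM. The alpha V gene *ITGAV*, the other partner of beta 3, was far higher, at 24.8 ± 2.57 CPM in DMSO and 28.4 ± 2.78 CPM in EZH2i, and did not pass the test (log2 fold change 0.20, edgeR adjusted p = 0.459). *ITGAV* was named here after its values were seen.

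The receptor for von Willebrand factor was hardly read. *GP1BA* (ENSG00000185245, chr17:4932277-4935023, plus strand), the ligand-binding chain, had 0, 3 and 0 reads in DMSO and 2, 0 and 1 in EZH2i, 3 reads per group. *GP9* (ENSG00000169704, chr3:129060779-129062406, plus strand), the small chain needed for surface assembly, had none. A count of 0 among 24026558 DMSO reads allows a level of up to 0.125 CPM (3 reads over the group), and among 22113264 EZH2i reads up to 0.136 CPM. The two-sided 95% exact upper limits for a count of 0 are slightly wider, 0.154 and 0.167 CPM.

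*GP1BB* (ENSG00000203618, chr22:19723539-19724771, plus strand), the chain linked to GP1BA by a disulfide bond, also had no read, but its 0 cannot be read as absence. In GENCODE version 44 it lies inside a read-through gene of *SEPTIN5* and *GP1BB* (ENSG00000284874, chr22:19717220-19724772), which itself had 0 reads, and 0 of the 959 exonic bases of *GP1BB* are free of other genes on that strand. HTSeq in its default mode gives a read in exons of several genes to none of them, and the mode used here was not given in the sources used here. The same holds widely: of 756 protein-coding genes whose last 500 bases lie wholly within another gene's exons on the same strand, 75.9% had no read, against 22.8% of 18476 whose last 500 bases are free of such genes. *SEPTIN5*, which begins upstream on the same strand and whose last 500 bases are likewise wholly covered by the read-through gene, had 33 reads in all.

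None of the other lineage genes had this limit at the end where reads fall. *ITGB3* shares part of its exons with a read-through gene (ENSG00000259753, 0 reads), yet 4563 of its 6829 exonic bases, its last 500 included, are free of other genes. In *GP9*, *VWF*, *PF4* and *PPBP* all exonic bases (877, 10387, 978 and 1307) were free of other genes on that strand. A count of 0 there limits the level as above for reads that align uniquely. Reads without a unique alignment, 21.4% to 22.3% of the listed reads, were counted on no gene. Whether any came from these genes was not tested.

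The adhesive proteins and chemokines gave 4 reads between them. *THBS1* (ENSG00000137801, chr15:39581079-39599466, plus strand), which encodes thrombospondin, had 0, 0 and 1 reads in DMSO and 1, 0 and 2 in EZH2i. *VWF* (ENSG00000110799, chr12:5948877-6124770, minus strand, 52 exons), made by megakaryocytes and endothelium, had no read. The neighbouring chemokine genes *PF4* (ENSG00000163737, chr4:73980811-73982027, minus strand) and *PPBP* (ENSG00000163736, chr4:73986439-73988190, minus strand), among the most abundant transcripts of platelets, had none either. With 1 read in DMSO and 3 in EZH2i for *THBS1*, and 3 reads in each group for *GP1BA*, both groups were at or under the limit of 3 reads and no fold was formed.

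Of the 9 lineage genes 0 were called, with 1 tested, and 0 had an unadjusted p under 0.05 in edgeR; with no read filter, 4 entered the fit and again 0 had one, and in DESeq2 0 of the 2 that received an adjusted p did. Across all tested genes 4.26% were called. The count thus rests on few reads, and for 5 of the 9 genes on none.

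The rest of the megakaryocyte and platelet programme was described with 6 lists of 175 genes in all, by role, which were also drawn up with earlier results of these data known. Of these, 130 had enough reads to be tested, 12 had no read and 29 had at most 3 reads in every library. Among the tested genes 21 were called (16.2%, against 4.26% of all tested genes), 19 higher in EZH2i (3.34% of all tested genes were higher) and 2 lower (0.922%). Without DMSO replicates 1, 2 and 3 the 21 calls fell to 9, 12 and 10, with 0 lower. The log2 fold change was above 0 in 87 of the 130, against 50% of all tested genes, and its median was 0.13 against 0.00. In all 21 called genes the CPM of the groups did not overlap, which was also so in 24.5% of all tested genes. Separation of the groups thus adds no support to a call.

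**Figure D2:**
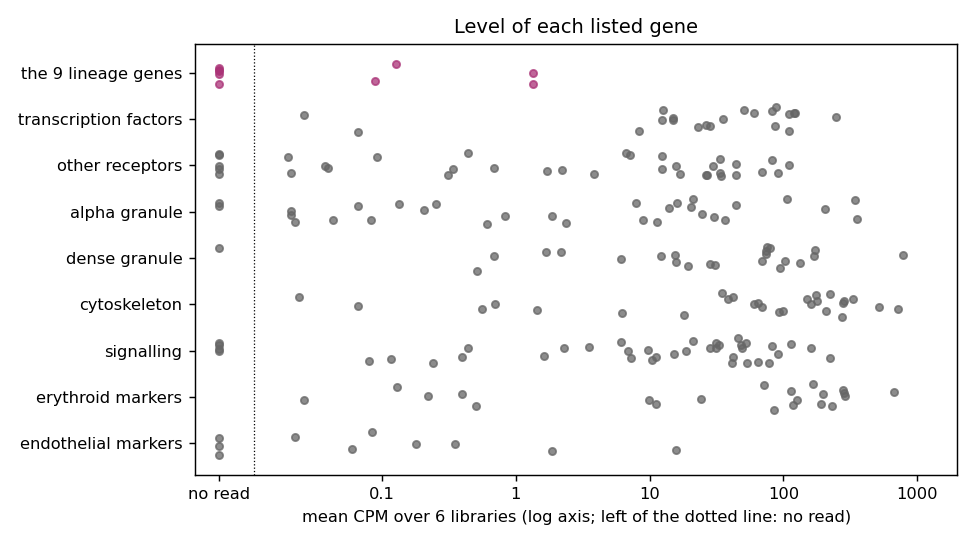
Mean CPM over the 6 libraries (log axis) of every gene of the 9 lineage genes, the 6 platelet lists and the erythroid and endothelial markers; genes with no read are drawn left of the dotted line. The 9 lineage genes reach 1.35 CPM at most, while most listed transcription factors lie between 10 and 100 CPM or above.

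The genes listed as transcription factors of the lineage were well expressed apart from a pair of ETS factors: 19 of 21 were tested, and *FLI1* and *ERG* had at most 3 reads in every library. Of the 19, only *ZFPM1*, which encodes the GATA1 cofactor FOG1, was called. It had 9.52, 6.39 and 8.49 CPM in DMSO and 16.7, 16.8 and 15.7 CPM in EZH2i, so every EZH2i library stood above every DMSO library. The log2 fold change was 1.02 (SE 0.184, edgeR adjusted p = 0.00407). Among the most abundant genes of the list, *LYL1* had 228 ± 14.5 CPM in DMSO and 266 ± 37.9 in EZH2i (edgeR adjusted p = 0.298), and *SRF*, a regulator of cytoskeletal genes, 145 ± 22.2 and 100 ± 26.0 CPM (log2 fold change -0.53, edgeR adjusted p = 0.0709, DESeq2 adjusted p = 0.0476). *MAFG* and *ANKRD26*, an inherited-thrombocytopenia gene that was put on this list although it encodes no transcription factor, had log2 fold changes of -0.31 and -0.12 and were not called (edgeR adjusted p = 0.224 and 0.605).

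*GATA1*, the master factor of both lineages, and *NFE2*, which drives platelet release, were chosen for mention after their values were seen. *GATA1* had 79.7 ± 5.14 CPM in DMSO and 96.4 ± 9.04 CPM in EZH2i (log2 fold change 0.28, edgeR adjusted p = 0.164). Both were read at levels more than 10 times those of *ITGA2B* and *ITGB3* (*NFE2* 77.2 CPM in DMSO and 86.7 CPM in EZH2i, edgeR adjusted p = 0.435).

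Of 35 other platelet surface receptors 21 were tested and 10 had at most 3 reads in every library. The latter hold the remaining von Willebrand receptor chain *GP5*, the ADP receptor *P2RY12*, *SELP* (P-selectin) and the collagen receptor chain *ITGA2*. *P2RX1*, an ATP-gated channel of platelets, and *ESAM*, an adhesion molecule of platelets and endothelium, were called higher. *P2RX1* had 8.27, 8.05 and 9.05 CPM in DMSO and 13.5, 17.9 and 18.1 CPM in EZH2i (log2 fold change 0.96, SE 0.181, edgeR adjusted p = 0.00572). Each EZH2i library was above all DMSO libraries. *ESAM* rose from 0.838 ± 0.389 to 2.61 ± 0.307 CPM (log2 fold change 1.66, edgeR adjusted p = 0.0358), but leaving out any 1 library lost the call, with adjusted p up to 0.162 without DMSO replicate 2, and DESeq2 gave 0.125.

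*GP6*, the collagen receptor, was near the threshold and was named after its values were seen: its CPM was 4.99, 4.74 and 4.53 in DMSO and 10.9, 5.28 and 12 in EZH2i (log2 fold change 0.98, edgeR adjusted p = 0.0556). EZH2i replicate 2 stayed close to the DMSO libraries. The most abundant receptors, *ITGB1*, *F11R*, *CD47* and *CD151*, had log2 fold changes of 0.08, -0.19, -0.02 and 0.21 and were not called (edgeR adjusted p from 0.35 to 0.955).

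**Figure D3:**
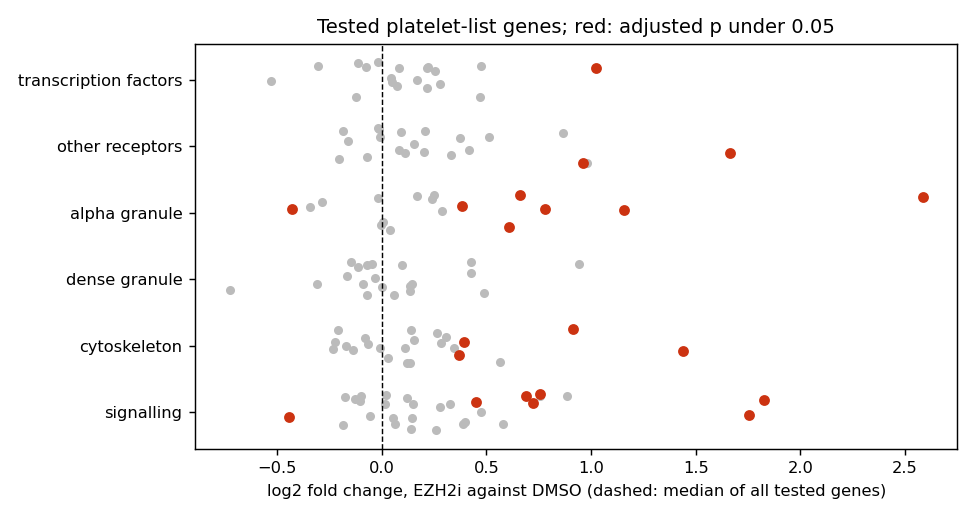
Fitted log2 fold change, EZH2i against DMSO, of the 130 tested genes of the 6 platelet lists; red points passed an adjusted p of 0.05 in edgeR, grey points did not, and the dashed line is the median of all tested genes. Of the 21 red points, 19 lie to the right of the line; the alpha-granule and signalling lists hold 7 each and the dense-granule list 0.

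The alpha-granule list had the highest share of calls, 7 of 17 tested (41.2%), 6 of them higher. Another 9 of its 30 genes had at most 3 reads in every library, among them the chemokine genes *PF4V1*, *CXCL5* and *CCL5* and the coagulation factor genes *F5* and *F13A1*. The listed chemokine genes had too few reads to be tested. *EGF* had 0.312, 1.18 and 0.453 CPM in DMSO and 3.51, 4.53 and 4.28 CPM in EZH2i (log2 fold change 2.59, SE 0.429, edgeR adjusted p = 0.0023). *CLU*, which encodes the chaperone clusterin, had 6.40, 7.70 and 7.13 CPM in DMSO and 17.0, 16.6 and 13.8 CPM in EZH2i (log2 fold change 1.16, SE 0.182, edgeR adjusted p = 0.00157). *LTBP1*, whose product binds latent TGF-beta, had 36.3, 35.0 and 33.4 CPM in DMSO and 51.0, 56.1 and 52.1 CPM in EZH2i (log2 fold change 0.61, SE 0.114, edgeR adjusted p = 0.00578). For these 3 genes the calls held when any 1 library was left out. Their EZH2i libraries lay wholly above the DMSO libraries, as in all 19 platelet-list genes called higher.

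The other alpha-granule calls were less firm. *TGFB1* rose from 18.3 ± 3.42 to 31.0 ± 7.21 CPM and *PDGFA* from 16.3 ± 2.10 to 25.7 ± 1.76 CPM (log2 fold changes 0.78 and 0.66, edgeR adjusted p = 0.0187 and 0.0179); *TGFB1* lost its call without DMSO replicate 2 (0.114) or 3, and *PDGFA* without DMSO replicate 1 or 3 (0.0868) or EZH2i replicate 2. *TIMP1*, a protease inhibitor, rose by a log2 fold change of 0.38, and *IGF1* fell from 121 ± 7.64 to 90.1 ± 7.25 CPM (log2 fold change -0.43). Both kept the call in only 1 of the 6 fits that leave out a library, the one without EZH2i replicate 1, with adjusted p up to 0.149 without DMSO replicate 1 for *TIMP1* and up to 0.12 without DMSO replicate 2 for *IGF1*. The 3′ end of *IGF1* is covered on the opposite strand by *HELLPAR*, and the strand setting of the counting was not given in the sources used here. *APLP2* and *ANGPT1* were more abundant than most of the list and had log2 fold changes of 0.25 and 0.24 without a call (edgeR adjusted p = 0.156 and 0.223; named after their values were seen).

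Of the 20 tested dense-granule genes 0 were called by edgeR; 4 had an unadjusted p under 0.05, DESeq2 called 1, *RAB27A*, and edgeR with no read filter called 2, *HPS1* and *LYST* (log2 fold changes 0.40 and 0.92, adjusted p = 0.041 and 0.0143), which were named after their values were seen. This GTPase of granule docking had 189 ± 7.18 CPM in DMSO and 153 ± 8.48 CPM in EZH2i (log2 fold change -0.31, edgeR adjusted p = 0.0894, DESeq2 adjusted p = 0.0481). The granule membrane genes *CD63*, *LAMP2* and *VAMP8* had log2 fold changes of -0.12, -0.15 and 0.13 (edgeR adjusted p = 0.588, 0.48 and 0.493). The median of the list was -0.01, close to that of all tested genes.

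Of 23 tested cytoskeletal genes 4 were called, all higher. *MYL9*, the regulatory light chain of non-muscle and smooth muscle myosin, had 3.74, 3.20 and 3.17 CPM in DMSO and 9.04, 11.3 and 6.85 CPM in EZH2i (log2 fold change 1.44, SE 0.254, edgeR adjusted p = 0.00351). *GSN*, which encodes the actin-severing protein gelsolin, had 12.6, 13.4 and 11.4 CPM in DMSO and 22.5, 27.3 and 20.6 CPM in EZH2i (log2 fold change 0.91, SE 0.160, edgeR adjusted p = 0.00338). Both were higher in every EZH2i library than in any DMSO library. *TLN1*, the talin gene whose product activates integrins, and *TAGLN2*, an actin-binding protein gene, rose by log2 fold changes of 0.37 and 0.39 (edgeR adjusted p = 0.0448 and 0.0284). Their calls remained in only 1 of the 6 fits, the one without EZH2i replicate 1, with adjusted p up to 0.184 and 0.114 without DMSO replicate 2.

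Of 30 tested signalling and prostanoid genes 7 were called, 6 higher and 1 lower. *PTGS1*, the cyclooxygenase that aspirin blocks in platelets, had 34.8, 37.3 and 31.7 CPM in DMSO and 56.2, 52.8 and 62.1 CPM in EZH2i (log2 fold change 0.72, SE 0.120, edgeR adjusted p = 0.00233). The lowest EZH2i library was well above the highest DMSO library, and the call held in every fit that left out 1 library. *PLCB2*, a phospholipase, and *GRAP2*, an adaptor, rose by log2 fold changes of 0.76 and 0.69 and lost the call only without DMSO replicate 1 (edgeR adjusted p = 0.0762 and 0.053). *MPIG6B*, an inhibitory receptor largely restricted to megakaryocytes and platelets, had 0.624, 1.66 and 0.679 CPM in DMSO and 3.10, 4.15 and 3.57 CPM in EZH2i (log2 fold change 1.83, SE 0.404, edgeR adjusted p = 0.0167). Its groups were separate, though the call was lost without DMSO replicate 1 or 3 (0.0855) or EZH2i replicate 2.

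The remaining signalling calls were lost in more of the fits that leave out 1 library. *FYB1*, an adaptor of T cells and platelets, rose by a log2 fold change of 1.76 from 0.736 ± 0.179 CPM (edgeR adjusted p = 0.0332, DESeq2 0.114), and the kinase gene *BTK* by 0.45 from 45.6 ± 4.37 CPM (edgeR adjusted p = 0.0414, DESeq2 0.0667). *JAK2*, a kinase of cytokine receptor signalling, fell from 56.5 ± 2.85 to 41.5 ± 1.95 CPM (log2 fold change -0.44, edgeR adjusted p = 0.0338). *FYB1* kept its call only without EZH2i replicate 2, *JAK2* only without EZH2i replicate 1 and *BTK* only without EZH2i replicate 1 or 3; adjusted p reached 0.136 and 0.189 without DMSO replicate 2 for *FYB1* and *BTK*, and 0.134 without DMSO replicate 1 for *JAK2*.

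**Figure D4:**
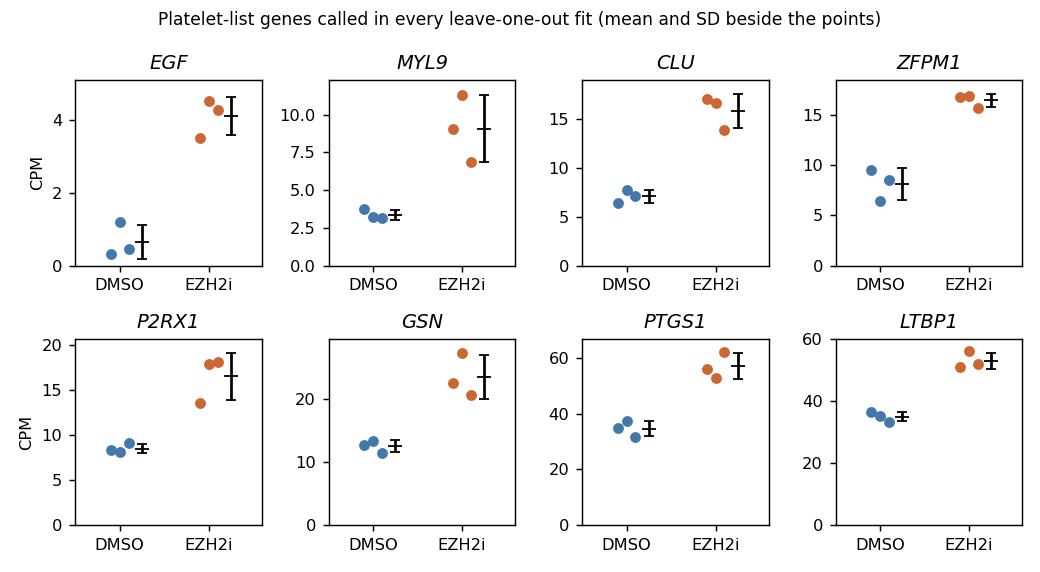
CPM (linear axes from 0) of the 8 platelet-list genes whose call held in all 6 fits that leave out 1 library, in 3 DMSO and 3 EZH2i libraries, with the mean and SD beside the points. In each panel all EZH2i points lie above all DMSO points, from *EGF* with a log2 fold change of 2.59 to *LTBP1* with 0.61. The groups did not overlap in 24.5% of all tested genes.

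Of the 21 calls, 8 held in each fit that left out 1 library (*ZFPM1*, *P2RX1*, *EGF*, *CLU*, *LTBP1*, *MYL9*, *GSN* and *PTGS1*) and 13 were lost in at least 1; none changed sign. DESeq2 also called 18 of the 21. *EGF*, *ESAM*, *FYB1* and *MPIG6B* had too few reads to enter a fit that required 10 in every library, *TLN1* lost its call with no read filter, and *JAK2* lost it when scaled by library size alone. Leaving out DMSO replicate 1 lost 12 calls, DMSO replicate 3 lost 11, DMSO replicate 2 and EZH2i replicate 2 lost 9 each, EZH2i replicate 3 lost 7 and EZH2i replicate 1 lost 2.

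Markers of other cell types were read beside these lists. The 21 erythroid markers summed to 2681 to 2897 CPM in DMSO and 2899 to 3008 CPM in EZH2i, but their levels were uneven. The glycophorin gene *GYPB* had 678 ± 48.6 CPM in DMSO, while 5 genes, *HBE1*, *SLC4A1*, *AHSP*, *EPB42* and *CA1*, had too few reads to be tested. Of these, *HBE1* and *EPB42* share part of their last 500 bases with another gene. Among the 16 tested, 3 were called (18.8%, against 16.2% of the platelet lists and 4.26% of all tested genes), all higher (*HBZ*, *HBG2* and *ALAS2*, log2 fold changes 1.15, 0.58 and 0.50). *HBG2* and *ALAS2* lost their calls without any 1 DMSO library (edgeR adjusted p up to 0.138 and 0.12, both without DMSO replicate 2). *HBZ* and *HBG2* share part of their last 500 bases with another gene and are uncertain. The 10 endothelial markers summed to 12.3 to 19.4 CPM in DMSO and 18.8 to 22.8 CPM in EZH2i. These sums were mainly *EGFL7*, with 14.9 ± 3.40 CPM in DMSO and 16.8 ± 2.17 CPM in EZH2i, which was not called (edgeR adjusted p = 0.669). *CDH5*, *KDR*, *TEK* and *CLDN5* had no more than 3 reads in any library. Of 2 tested *TIE1* was called (0.424 ± 0.169 to 3.31 ± 0.0998 CPM, log2 fold change 2.92, edgeR adjusted p = 0.00131). Of 12 monocyte, granulocyte and lymphocyte markers, which summed to 185 to 195 CPM in DMSO and 190 to 225 CPM in EZH2i, *LYZ* was called among 6 tested (log2 fold change 0.62, edgeR adjusted p = 0.0426), though in none of the fits that left out 1 library (up to 0.16 without DMSO replicate 3) nor in DESeq2 (adjusted p = 0.0882), and its 3′ end is covered on the opposite strand by another gene; *CD14*, *CSF1R*, *MPO* and *ELANE* had no more than 3 reads in any library. The part of these markers in the results on the platelet lists was not tested.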

How the data were processed

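Per the labels and the study's methods, RNA from 3 separate cultures per group was made into QuantSeq forward libraries. The authors deposited raw counts per Ensembl gene, not normalized, and replicates were not pooled. The submitters' processing notes name STAR 2.6.0c, HTSeq 0.11.2 and hg38; the paper names Ensembl as the source of the annotation, and the strand setting of the counting was not given in the sources used here. Rows that name no gene held 32.1% to 36.4% of the listed reads and entered neither the library sizes nor the fits. The deposited DESeq2 table (mean normalized count, log2 fold change, SE, Wald statistic, p and adjusted p) was not used.

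Symbols and positions came from GENCODE version 44 on GRCh38 (60401 of 60671 identifiers matched), and promoters from RefSeq. The test across all genes was edgeR's quasi-likelihood test (edgeR 4.0.16, R 4.3.3; TMM, filterByExpr with a minimum count of 10, glmQLFit and glmQLFTest, Benjamini-Hochberg adjustment, threshold 0.05; common dispersion 0.0129). DESeq2 1.42.0 and limma-voom (limma 3.58.1) were alternatives, and the fits were tested on simulated data. CPM is scaled to the reads on genes of each library times its TMM factor, except in limits and pooled ratios, which use the reads alone. Intervals of ratios are exact binomial ones.

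Genes named were the 9 lineage genes; in each list the called genes and, with fewer than 4 calls, the tested genes of highest mean CPM up to 4; the 3 genes most like each tested lineage gene; and genes called within 250 kb of one. Exceptions named after their values were seen are marked as such. Genes named for few or no reads were also picked after their values were seen and are not marked. In the marker lists of other cell types the abundant genes that were not called are left out, except *GYPB*, *EGFL7*, *PTPRC*, *CD33* and *SPI1*. The lineage genes and lists were chosen with earlier results of these data known. Libraries with the same replicate number did not deviate together (correlations -0.0511, -0.0176 and -0.0170 over 12364 genes), so no block was used.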

Additional observations from a re-analysis of the deposited data

How the results depend on the processing

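None of the 9 lineage genes was called under any alternative run; with at least 10 reads required in every library, none of them entered the test. The log2 fold change of *ITGA2B* ranged from -0.026, without DMSO replicate 1, to 0.51 when 1 library was left out, and it was never called. Over all genes, the 527 calls became 928 with no read filter (579 higher, 349 lower), 148 at an adjusted p of 0.01 and 209 to 536 with 1 library left out; DESeq2 called 435 (292 higher, 143 lower) and a fit by library size alone 582 (503 higher, 79 lower). The 21 calls of the platelet lists became 9 at an adjusted p of 0.01 and 9 to 21 with 1 library left out. With the replicate number as a block, although the libraries share only a number, 599 genes and 22 platelet-list genes were called, without *TIMP1* and *TLN1*. The cause of these shifts was not tested. Depth limits the lineage genes: 3 reads are 0.334 to 0.474 CPM in 1 library, and levels of a group under 0.125 to 0.136 CPM (3 reads over the group) cannot be told from 0.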

Other observations

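Within 250 kb of any of the 9 genes 55 other genes were tested and 3 were called, against 4.26% of all tested genes. *MYL4*, which encodes an atrial and embryonic myosin light chain, lies 30.1 kb from *ITGB3* and rose from 54.0 ± 1.33 to 86.6 ± 12.7 CPM (3 libraries each, ± SD), a log2 fold change of 0.68 (SE 0.119, edgeR adjusted p = 0.00337). *FAM171A2*, 8.33 kb from *ITGA2B*, rose from 20.4 to 31.4 CPM (log2 fold change 0.61, edgeR adjusted p = 0.0297). *CDC45*, a replication helicase gene 203 kb from *GP1BB*, fell from 232 ± 24.2 to 160 ± 19.8 CPM (log2 fold change -0.53, edgeR adjusted p = 0.0152). The *MYL4* call held in all 6 fits that leave out 1 library, that of *CDC45* was lost without DMSO replicate 1 (0.100), and that of *FAM171A2* remained only without EZH2i replicate 1 (up to 0.132 without DMSO replicate 1).

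Over the 6 libraries the genes whose log2 CPM ran most like that of *ITGA2B* were *EMID1*, *INPP5E* and *RPS10P5* (Pearson r = 0.995, 0.981 and 0.974), and 67 genes had r above 0.9. With 6 points that share library depth and counts of 4 to 14 reads for *ITGA2B*, these values only describe the libraries.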
